A study of Mus musculus with 15 samples.

Results

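Cluster 1 was the second most numerous of the 3 microglia clusters that the authors' cell table holds. Its members were all cells with cluster number 1 in the control mice and in the treated mice of days 7, 14 and 28, which gave 32755 of the 81584 cells of those 12 mice (40.1%) and of the 102043 cells of the series. Another 1098 cluster 1 cells came from mice treated for 1 day and were not members. The cells were sampled in a single-cell RNA-sequencing study of ATV:4D9, an antibody against the microglial receptor TREM2 whose Fc part also binds the human transferrin receptor so that it can cross the blood-brain barrier. ATV:RSV is a control antibody in the same format that recognises a viral protein instead. Every mouse, controls included, was a male C57BL/6J carrying the human transferrin receptor knock-in (hTfR KI), was 3.5 months old and received a single dose of 10 mg/kg. The 4 groups were ATV:RSV killed on day 1 and ATV:4D9 killed on days 7, 14 and 28, with 3 mice each, and each group had 1 mouse in each of the 3 processing batches. The treated groups share the same 3 day 1 control mice and no control was killed on their own day, so days since dosing and treatment cannot be told apart. Cells came from cortex and hippocampus, per the labels, after enzymatic dissociation and enrichment on CD45 magnetic beads, which bind all leukocytes, and transcripts were counted as unique molecular identifiers (UMIs) from the 3′ end.

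A mouse gave between 2184 and 3135 members, which were 34.5% to 44.9% of its cells, and between 8864545 and 15867901 UMIs. In all, cluster 1 held 150912188 UMIs over 20527 genes. Of 32619 distinct cell barcodes in the cluster, 134 (0.411%) occurred in more than 1 mouse, and at most 3 mice shared one. Mice of 1 group differed by more than sampling noise, with a chi-square per degree of freedom of 4.03 to 9.49. The other clusters of the same mice were cluster 0, with 47403 cells, and cluster 2, with 1426.

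Microglia are the resident macrophages of the brain. At rest they are known for surface receptors that survey the tissue, such as P2ry12 and Cx3cr1. Immediate early genes are the first to be transcribed when a cell is stimulated, since their promoters need no new protein. Most encode transcription factors of the AP-1, EGR and KLF families, and their transcripts are short-lived. NF-kB acts on a second set, which holds cytokines, chemokines and its own inhibitors such as Nfkbia and Tnfaip3. The 2 genes given as markers of cluster 1 belong to neither set. Hspa1b encodes the inducible cytosolic chaperone HSP70, and Hist1h1d encodes a linker histone, which closes the turn of DNA around a nucleosome and is made mainly during DNA replication.

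The label microglia fitted the cells' markers. At matched depth the 7 microglia markers summed to between 18361 and 22094 CPM (counts-per-million, a UMI count over the total of its mouse and cluster) in the 12 mice. The sums for border-associated macrophages, monocytes, neutrophils, dendritic cells, T cells, NK cells, neurons, astrocytes, endothelial and mural cells were at or below 31.5 CPM in every mouse. The B cell sum of 153 to 257 CPM was nearly all Ighm, at 215 CPM in cluster 1 and 212 CPM in cluster 0, and the oligodendrocyte sum was 44.9 to 68 CPM. Haemoglobin transcripts reached 438 CPM in 1 control mouse and 362 CPM in 1 day 7 mouse. Only 86 of the members (0.263%) had 3 or more markers of another type.

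Cluster 1 cells held fewer UMIs than those of cluster 0. The median was 3677 to 4773 UMIs per cell against 5284 to 7060 in cluster 0, lower in 12 of 12 mice, with a ratio of 0.628 to 0.714. Except where stated, levels set between clusters therefore come from cells thinned to 2637 UMIs each. The gene tests between groups and the shares of UMIs from gene lists used unthinned sums. Thinning left out 3268 cluster 1 cells (3.24% to 20.1% of a mouse's) and 259 cluster 0 cells, and kept 29487 and 47144. At that depth cluster 1 cells had slightly more genes detected, a median of 1243 to 1342 against 1229 to 1274, higher in 12 of 12 mice. The mean share of mitochondrial UMIs was 3.38% to 4.25% in cluster 1 and 3.28% to 4.01% in cluster 0. Since the clusters were drawn from these same counts, differences between them are described per mouse and not tested.

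The promoters of the genes that carry the description are of different kinds, and 3 are shown, each as the 250 bases before the RefSeq start site on build GRCm38.p6. Hspa1b (chr17:34959239-34959488, minus strand) was chosen as the given marker with the highest ratio, Fos (chr12:85473640-85473889, plus strand) as a core immediate early gene, and Nfkbia (chr12:55492648-55492897, minus strand) as the classical NF-kB feedback gene. Capitals mark the pair of heat shock element units GAANNTTC in Hspa1b, the core of the cAMP response element TGACG in Fos, which occurs 2 times, and the NF-kB site in Nfkbia. The Nfkbia match lies on the other strand. Each motif was searched on either strand in all 3, as were TTCNNGAA, the AP-1 site TGANTCA and the CArG box. The only further match was an NF-kB site on the other strand of Fos, which is left in lower case and overlaps neither TGACG.
Hspa1b: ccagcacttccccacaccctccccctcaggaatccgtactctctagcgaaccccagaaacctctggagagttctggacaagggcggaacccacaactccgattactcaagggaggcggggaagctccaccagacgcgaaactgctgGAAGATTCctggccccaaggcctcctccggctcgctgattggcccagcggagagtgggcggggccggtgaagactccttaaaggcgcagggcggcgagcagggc
Fos: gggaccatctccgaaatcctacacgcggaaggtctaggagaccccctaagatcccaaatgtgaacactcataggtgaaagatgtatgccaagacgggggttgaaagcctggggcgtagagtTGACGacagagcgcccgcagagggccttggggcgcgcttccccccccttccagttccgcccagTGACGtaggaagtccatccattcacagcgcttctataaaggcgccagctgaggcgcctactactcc
Nfkbia: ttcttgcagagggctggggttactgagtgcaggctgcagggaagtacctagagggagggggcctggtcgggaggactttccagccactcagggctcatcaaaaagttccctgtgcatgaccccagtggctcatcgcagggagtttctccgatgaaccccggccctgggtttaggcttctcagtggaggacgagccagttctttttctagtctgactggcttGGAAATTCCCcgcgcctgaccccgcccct
Of the promoters of 27025 gene symbols, 7.73% hold GAANNTTC, 19.8% TGACG, 4.46% an NF-kB site, 8.11% TTCNNGAA, 7.82% TGANTCA and 1.62% a CArG box. The heat shock list holds GAANNTTC in 8 of 20 promoters, the immediate early list TGACG in 15 of 25 and an NF-kB site in 5 of 25, and the NF-kB list an NF-kB site in 9 of 22. TGACG was also found in 41.7% of ribosomal protein promoters and in 50.0% of the heat shock list. Hspa1a, the near-identical neighbour of Hspa1b, differs from it at 3 of these 250 bases. Hist1h1d, Egr1, Ier2, Nfkbiz, Egr3, Hist1h2be, Polr3a and Letm2 had no entry in the promoter table.

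What set cluster 1 apart most was a low level of immediate early transcripts. All 27 of the list's 29 genes with at least 5 CPM in either cluster were lower than in cluster 0 in 12 of 12 mice, with a median log2 ratio of -2.27. Their sum was 14201 ± 1483 CPM (SD, n = 12) in cluster 1 and 47317 ± 2572 CPM in cluster 0. Against this, 8.80% of the 9409 genes at 5 CPM or more were lower in 12 of 12 mice, 27.1% were higher in 12 of 12, and their median ratio was 0.11. Scaling by trimmed mean of M-values (TMM) in place of the total moved that median to -0.02 and the shares to 18.6% lower and 13.6% higher, so small ratios depend on the scaling. The immediate early genes stayed 27 of 27 lower, with a median of -2.36.

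Egr1, a zinc finger factor induced by growth factor signalling, was between 226 and 503 CPM in cluster 1 (median 326) and between 2533 and 3261 CPM in cluster 0 (median 2935). The mouse ranges did not overlap and the log2 ratio was -3.10 ± 0.33 (SD over 12 mice). Fos, the prototype AP-1 subunit, was 509 to 1248 CPM against 4705 to 5801 CPM, a ratio of -2.68 on the log2 scale. Jun, its partner, differed less, with 1598 to 2936 CPM against 5777 to 7694 CPM and a ratio of -1.57. Atf3, a stress-induced factor of the same family, was 281 ± 61.0 CPM against 2311 ± 274 CPM. Ier2 (log2 ratio -3.06), Fosb (-2.77), Egr3 (-2.72) and Klf2 (-2.70) were, with Egr1 and Atf3, among the 12 named genes of lowest ratio. Dusp2, a phosphatase that switches off MAP kinases, was 7.49 ± 3.99 CPM against 56.2 ± 21.1 CPM. The smallest differences of the list were those of Rhob, a small GTPase (-0.91), and Myc, a transcription factor of cell growth (-0.84).

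**Figure D1:**
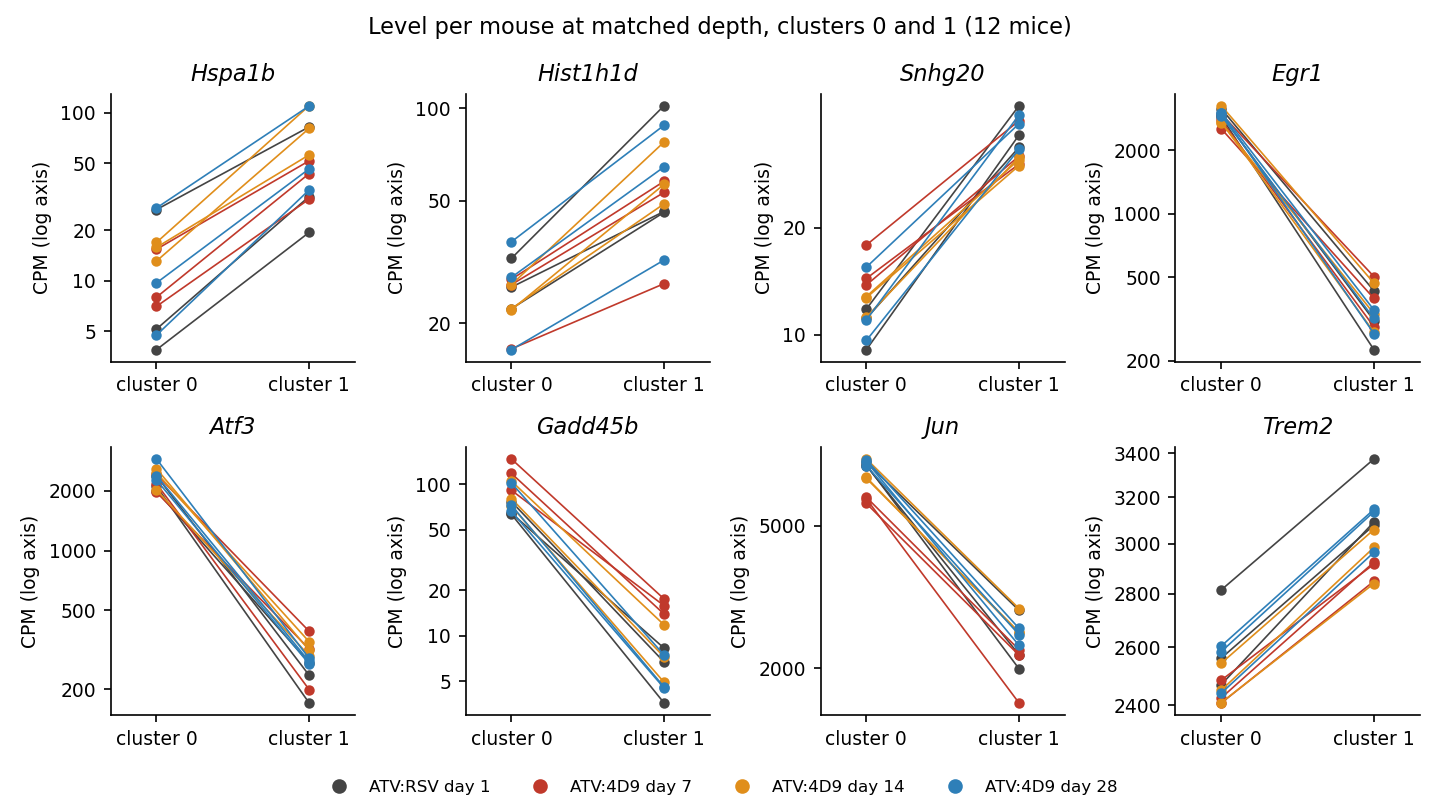
Levels in CPM (log axis) of 8 genes in clusters 0 and 1 at matched depth, with 1 line per mouse coloured by group. Lines for Hspa1b, Hist1h1d, Snhg20 and Trem2 climb in 12 of 12 mice, and lines for Egr1, Atf3, Gadd45b and Jun drop in 12 of 12, with every mouse's Egr1 at or below 503 CPM in cluster 1 and at or above 2533 CPM in cluster 0.

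NF-kB targets were low as well. Of 27 measured genes of that list, 23 were lower in 12 of 12 mice and 1 was higher, with a median log2 ratio of -1.40 and sums of 3387 ± 798 and 11149 ± 2038 CPM. Gadd45b, a stress-induced regulator of growth arrest, had the lowest ratio of the named genes, at 3.60 to 17.5 CPM against 63.4 to 147 CPM (log2 ratio -3.28 ± 0.42). Nfkbia, the inhibitor that holds NF-kB in the cytoplasm, was 305 to 454 CPM against 1838 to 2168 CPM. Nfkbiz, a nuclear member of the same inhibitor family, was 35.3 to 82.4 CPM against 363 to 497 CPM. The cytokine genes Tnf (-2.92), Il1b (-2.73) and Il1a (-2.28) and the chemokine genes Ccl4 (-1.67) and Ccl3 (-1.35) followed. For Il1b, Ccl3 and Ccl4 the ranges of mice overlapped between clusters, and a day 7 mouse was the highest in both, although each mouse was lower in cluster 1 than in its own cluster 0. The gene that was higher was Nfkb1, a subunit of NF-kB itself, by 0.15. With TMM scaling 24 were lower and 0 higher in 12 of 12. Ccl5 (-0.17), Cxcl16 (-0.06) and Sod2 (-0.17) did not have the same sign in 12 of 12 mice.

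Part of 2 further lists was lower as well, where 8.80% of all genes at 5 CPM or more were lower in 12 of 12 mice. Of 8 glucocorticoid-responsive genes 6 were lower in 12 of 12 mice, among them Tsc22d3, an inhibitor of AP-1 and NF-kB (-1.82), and Sgk1, a kinase (-0.92). Of 14 p53 targets and apoptosis genes 6 were lower and 0 higher in 12 of 12, with a median of -0.27, led by Cdkn1a, an inhibitor of cyclin-dependent kinases (-2.27), and including Mcl1, a survival factor (-1.39). Outside these lists, H3f3b, 1 of the 2 genes for the histone variant H3.3, was 1343 to 2231 CPM against 3724 to 6054 CPM, and its sister gene H3f3a differed by -0.31. Marcksl1, an actin-binding protein kinase C substrate that is in none of the lists, was 12 to 28.8 CPM against 123 to 204 CPM.

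The marker Hspa1b had the highest ratio of the named genes, yet at a low level. Per mouse it was 82.3, 19.4 and 31.7 CPM in the ATV:RSV mice, 51.7, 43.4 and 30.6 on day 7, 80.6, 110.0 and 56.1 on day 14, and 109.6, 46.3 and 34.7 on day 28. In cluster 0 of the same mice it was 26.5, 3.89, 5.16, 15.4, 7.98, 7.04, 13.1, 16.9, 15.8, 27.1, 9.71 and 4.75 CPM. Each mouse was higher in cluster 1, and mice high in 1 cluster tended to be high in the other, so the ranges overlapped. The mean log2 ratio was 2.14 ± 0.36 with a pseudocount of 1 CPM, between 1.6 and 2.64 in single mice, and 1.52 with a pseudocount of 10 CPM. Its near-copy Hspa1a was 150.4 ± 86.3 against 84.0 ± 36.2 CPM and higher in 11 of 12 mice. Reads of these 2 genes can be assigned to either, so the split between them is uncertain.

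Hist1h1d was 45.9, 102 and 46.2 CPM in the ATV:RSV mice, 57.9, 26.9 and 53.3 on day 7, 77.7, 56.6 and 48.9 on day 14, and 32.1, 64.5 and 88.1 on day 28. In cluster 0 its range was 16.4 to 36.8 CPM, and the log2 ratio was 1.11 ± 0.27, positive in 12 of 12 mice. In cells of 4000 to 5000 UMIs that were not thinned, a check added after the values were seen, the ratio was 0.70. Replication-dependent histone transcripts mostly lack a poly(A) tail, and these libraries were made from poly(A) RNA, so their counts cover the tailed minority.

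The other genes of highest ratio do varied work. Snhg20, a noncoding RNA that hosts small nucleolar RNAs, was 30.0 to 44.3 CPM in cluster 1 and 9.06 to 17.9 CPM in cluster 0. The ranges did not overlap and the log2 ratio was 1.43 ± 0.31. Hist1h2be, a core histone gene that overlaps Hist1h1e on the same strand, was 34.7 ± 8.30 against 14.8 ± 1.45 CPM. Polr3a, the catalytic subunit of RNA polymerase III, was 23.9 ± 3.57 against 11 ± 1.47 CPM, and Krit1, a scaffold of cell junctions whose locus overlaps Lrrd1, 121 ± 13.4 against 58.0 ± 3.19 CPM. Zfp846 (log2 ratio 1.14), Pot1b, which caps telomeres (0.90), Lman2l, a lectin of the secretory pathway (0.88), Letm2 (0.86), Sema4b, a semaphorin (0.84), and Ube3c, a ubiquitin ligase (0.80), made up the 12. Predicted genes and clone names were left out of this naming. They made up 17 of the 40 genes of highest ratio at 20 CPM or more, and 0 of the 40 of lowest ratio.

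**Figure D2:**
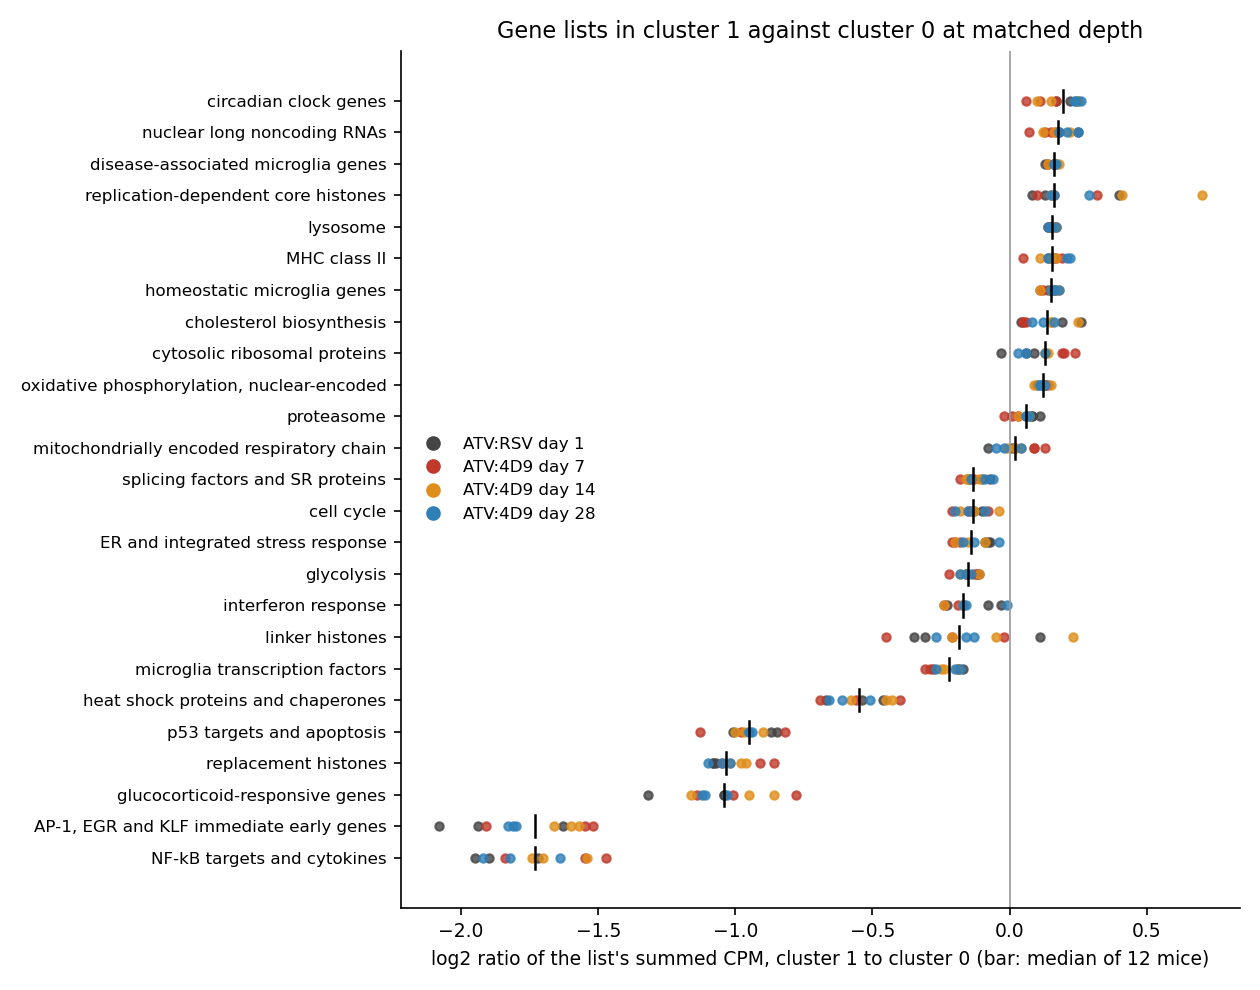
Log2 ratio of each list's summed CPM in cluster 1 to that in cluster 0 at matched depth, 1 point per mouse and a bar at the median of 12 mice. The NF-kB and immediate early lists stand farthest to the left, between -2.08 and -1.47 in single mice, while most other lists lie within 0.3 of 0.

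The rest of the heat shock list did not share the direction of Hspa1b. Of 24 measured chaperone genes 3 were higher in 12 of 12 mice and 7 were lower, with a median of -0.05. Over all genes at 5 CPM or more 27.1% were higher and 8.80% lower, with a median of 0.11. The summed level of the chaperone genes was lower in 12 of 12 mice (5192 ± 774 against 7554 ± 786 CPM). Dnajb1, the co-chaperone that works with HSP70, was 26.1 to 69.8 CPM against 108 to 197 CPM. The constitutive chaperone Hspa8 differed by -0.31. Among linker histones Hist1h1e was higher by 0.28, H1f0 had a log2 ratio of -0.82, and Hist1h1c one of -0.29 with 11 of 12 mice lower. Core histones showed 6 of 13 measured genes higher and 0 lower, with a median of 0.58 (0.47 with TMM). Its largest ratio was that of Hist1h2ac, at 16.1 ± 4.80 against 3.62 ± 0.901 CPM. Cell cycle genes had 2 higher and 1 lower of 7 and a median of 0.01, which turned to -0.11 with TMM. For so few genes these counts lie near the shares over all genes. Pcna, the clamp of the replication machinery, was 34.0 to 46.0 CPM in cluster 1 and 46.3 to 58.0 CPM in cluster 0.

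Homeostatic microglia genes were modestly higher. Of 22 genes 19 were higher in 12 of 12 mice and 1 lower, with a median of 0.25. With TMM scaling 14 were higher and 4 lower, the median was 0.12 and the summed level was higher in 8 of 12 mice instead of 12 of 12. P2ry12, the receptor for released nucleotides, had a ratio of 0.29 and Tmem119 one of 0.31. Trem2, the target of ATV:4D9, which is on the disease-associated list, had a ratio of 0.27. Several lists with smaller medians changed sides with the scaling. Over all genes at 5 CPM or more 27.1% were higher and 8.80% lower in 12 of 12, with a median of 0.11. Under TMM these values were 13.6%, 18.6% and -0.02. Ribosomal protein genes had 22 of 77 higher with a median of 0.11, and 0 of 77 with a median of -0.02 under TMM. Both ribosomal medians were thus those of all genes. Oxidative phosphorylation genes had 43 higher and 3 lower of 75, and 6 higher and 8 lower under TMM. Disease-associated microglia genes (median 0.12) turned to -0.01, MHC class II genes (0.07) to -0.06 and proteasome genes (0.04) to -0.09.

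Genes with large differences in either direction were short. The 164 genes at least 2-fold lower in 12 of 12 mice had a median span of 6.71 kb, and 39.9% of the annotated ones were under 5 kb, against 23.5 kb and 11.9% over all genes at 5 CPM or more. The 18 genes at least 2-fold higher in 12 of 12 mice had a median span of 8.37 kb, with 43.8% of the annotated ones under 5 kb. All 2548 genes higher in 12 of 12 had a median span of 28.3 kb, and all 828 lower ones 12.6 kb.

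Cluster 2 was not intermediate throughout. Its immediate early sum of 30316 ± 3134 CPM lay between those of clusters 1 and 0, whereas its NF-kB sum of 19626 ± 2544 CPM was the highest of the 3 and its homeostatic sum of 91788 ± 5009 CPM the lowest. Homeostatic sums were 115049 ± 6470.4 CPM in cluster 1 and 103818 ± 4825 CPM in cluster 0. Hspa1b was 28.0 CPM in cluster 2 and Sema4b 5.4 CPM, against 29 ± 5.83 CPM in cluster 1.

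Some genes above and below lie outside the naming rule and were chosen after their values were seen. They are Fos, Rhob, Myc, Il1a, Nfkb1, Cxcl16, Sod2, Cdkn1a, Dnajb1, Hspa1a, H1f0, Hist1h2ac, P2ry12, Tmem119, Axl, Clec7a, Apoe, Ptgs2, Zfp36, Eef1a1 and Rack1.

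Within cluster 1 the immediate early level was graded from cell to cell. In the median mouse the 10th percentile, median and 90th percentile were 7.00, 30.5 and 81.9 UMIs of the 29 genes per thinned cell, against 78.5, 121 and 180 in cluster 0. Between 0.923% and 2.92% of a mouse's cluster 1 cells reached the median of its cluster 0, and between 0.0235% and 0.260% of cluster 0 cells were at or below the median of cluster 1. The distributions met in a shared range without a gap.

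**Figure D3:**
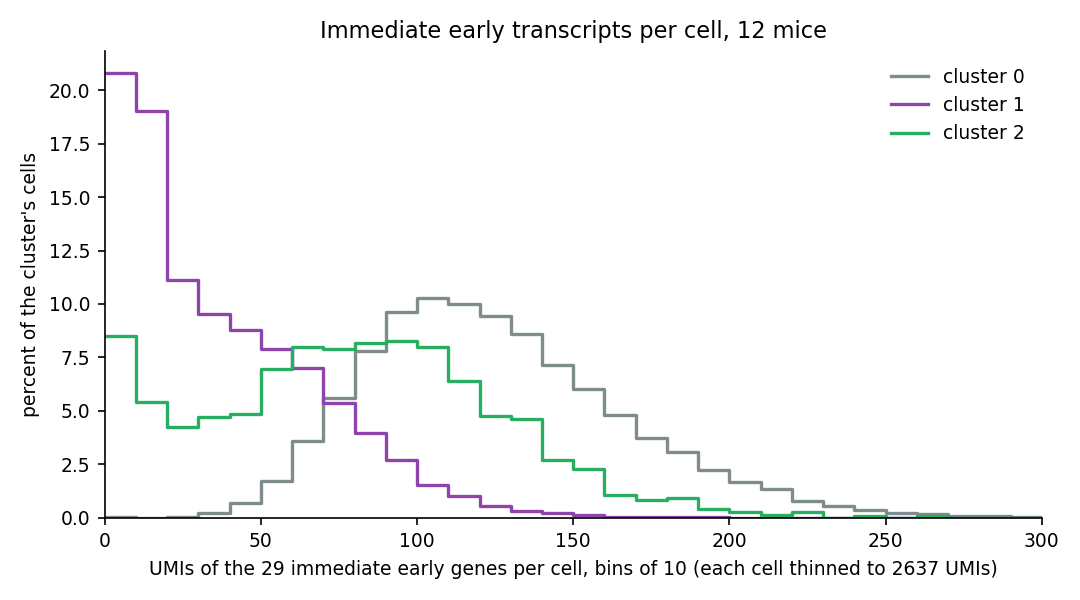
Share of cells (percent) by UMIs of the 29 immediate early genes per cell, in bins of 10, after thinning each cell to the same depth, for clusters 0, 1 and 2 of the 12 mice together. Cluster 1 peaks in the lowest bins and tails into the range of cluster 0, whose median per mouse is 106 to 129 UMIs, and cluster 2 spreads over both.

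Both marker genes were seen in few cells. A UMI of Hspa1b was found in 3.20% to 14.5% of a mouse's thinned cluster 1 cells and in 0.776% to 5.06% of its cluster 0 cells, and a UMI of Hist1h1d in 4.68% to 12.1% and 3.61% to 6.89%. Each was more frequent in cluster 1 in 12 of 12 mice. Most cluster 1 cells thus showed neither at this depth, which limits cells with a UMI and not cells that express the gene. Free RNA in the droplets can also give a UMI, and its part was not tested. Counts were uneven, since cells with 3 or more Hspa1b UMIs were 0.372% to 3.83% of cluster 1 and held 25.5% to 54.1% of its Hspa1b UMIs. The 2 markers were only loosely tied in single cells. Hspa1b was found in 7.93% of Hist1h1d cells and in 7.24% of the others in the median mouse, higher in 8 of 12 mice. Hspa1a was found in 40.6% to 60.2% of Hspa1b cells and in 4.45% to 15.7% of the rest. Reads of these near-copies can be assigned to either, and the part of this in their joint detection was not tested. Cells with a marker UMI held somewhat more immediate early UMIs than the others. The mean was 43.0 in Hspa1b cells and 37.8 in the others in the median mouse, higher in 11 of 12, and 48.1 against 37.3 for Hist1h1d, higher in 12 of 12.

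The study followed microglia after 1 dose of ATV:4D9, and the next comparisons ask how cluster 1 differed between mice killed at each time and the control mice. UMIs were summed per mouse over the members, 12139 genes were tested with limma-voom, and genes with a Benjamini-Hochberg adjusted p under 0.05 were called. On day 7, 605 genes (4.98%) differed from ATV:RSV, of which 449 (3.70%) were higher and 156 (1.29%) lower. On day 14, 122 genes (1.01%) differed, 119 (0.980%) higher and 3 (0.0247%) lower. On day 28, 0 genes (0%) were called by limma-voom or edgeR, 3 by DESeq2, and 571 had an unadjusted p under 0.05. The test over the 4 groups called 329 genes (2.71%). With batch as a block the counts were 1049, 196, 0 and 586. With library size alone in place of TMM, day 7 gave 313 higher and 1647 lower, and the median over all genes moved from -0.01 to -0.14. The day 7 count was 356 without day 7 replicate 3, and the day 14 count 78 without day 14 replicate 1. In cluster 0 of the same mice, tested in the same way over 13198 genes, 497 (3.77%) were called on day 7, 1 (0.00758%) on day 14 and 0 on day 28.

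Neither marker of the cluster was called on any day. Hspa1b differed from ATV:RSV by a log2 value of 0.06 ± 0.49 (SE) on day 7, 1.06 ± 0.45 on day 14 and 0.60 ± 0.46 on day 28, with limma-voom adjusted p of 0.978, 0.637 and 0.998. The control mice alone spanned 17.2 to 83.5 TMM-scaled CPM, and within batches the day 14 difference was -0.05, 2.62 and 0.73. Hist1h1d differed by -0.20 ± 0.35, 0.11 ± 0.34 and -0.06 ± 0.34. No gene of the heat shock list (26 tested) or of the linker histones (5 tested) was called on any of the 3 days. Over all genes tested the shares were 4.98%, 1.01% and 0%, so 0 calls among so few genes lie near them. The share of UMIs from the immediate early list was 1.2% to 1.67% in the controls, 1.26% to 1.52% on day 7, 1.59% to 1.66% on day 14 and 1.5% to 1.51% on day 28, always below the 3.98% to 4.88% of cluster 0. On day 7, 4 of its 29 genes were higher, among them Junb by 0.45 and Dusp2 by 1.29, with a median of 0.31, and on day 14 2 were. The shares called higher over all genes tested were 3.70% and 0.980%.

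Ribosomal protein genes rose together. On day 7, 76 of the 78 tested were higher, with a median log2 difference of 0.65, and on day 14, 73 were, with a median of 0.38. Over all genes tested 3.70% were higher on day 7 and 0.980% on day 14. On day 28 the median was 0.13 and 0 were called. Their share of UMIs was 12.5%, 12.6% and 12.3% in the ATV:RSV mice, 18.1%, 17.8% and 17.8% on day 7, 16.4%, 15.3% and 14.8% on day 14, and 13.8%, 13.2% and 13.2% on day 28. No treated mouse fell into the control range. Library size alone left 76 and 56 called. Rps24, a protein of the small subunit, was 3057 ± 107 in the controls and 4772 ± 89.8 TMM-scaled CPM on day 7 (log2 difference 0.64 ± 0.04, limma-voom adjusted p = 1.73e-07). In cluster 0 the mean share rose as well, from 12.4% in the controls to 15.8% on day 7 and 14.3% on day 14. No day 7 or day 14 mouse fell into the cluster 0 control range of 11.9% to 12.9%. Medians there were 0.42 on day 7 and 0.23 on day 14, with 68 and 0 genes called, against 3.77% and 0.00758% of all genes tested in cluster 0. The test between clusters given below called 0 of the 78 on day 14.

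**Figure D4:**
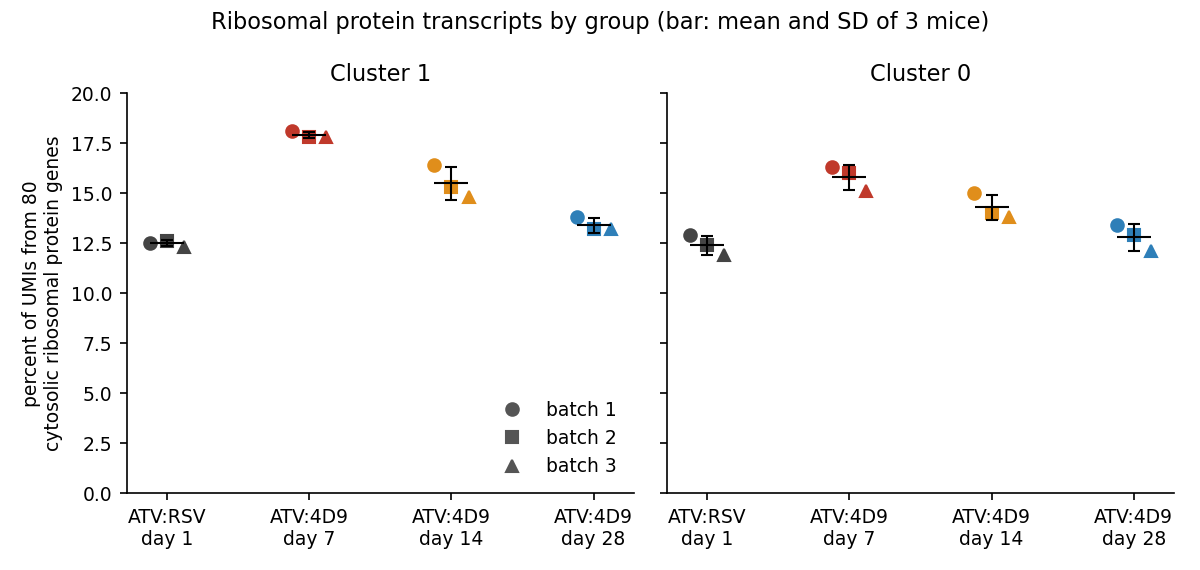
Percent of UMIs from 80 cytosolic ribosomal protein genes per mouse in clusters 1 and 0, by group, with symbols for batch and bars for the mean and SD of 3 mice. In cluster 1 the day 7 mice sit at 17.8 to 18.1%, the day 14 mice at 14.8 to 16.4% and the controls at 12.3 to 12.6%. In cluster 0 the day 7 mice sit at 15.1 to 16.3%, the day 14 mice at 13.8% or more and the controls at 11.9 to 12.9%.

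On day 7 the higher genes also included inflammatory ones. Over all genes tested 3.70% were higher and 1.29% lower on that day, with a median of -0.01. Of 29 NF-kB targets tested 16 were higher and 0 lower (median 0.40), of 24 disease-associated microglia genes 14 and 0 (median 0.35), and of 21 interferon response genes 13 and 0 (median 0.69). Axl, a receptor for dying cells, rose by 3.09 ± 0.33 on the log2 scale, Clec7a, a receptor for fungal glucans, by 1.93 ± 0.17, and Apoe, the lipid carrier, by 1.52 ± 0.11. The cyclooxygenase gene Ptgs2 rose by 3.53 ± 0.61. Mitochondrially encoded transcripts had 8 of 13 higher (median 0.37). Homeostatic genes had 5 of 22 lower and 0 higher (median -0.13), among them P2ry12 by -0.24, and endoplasmic reticulum stress genes 5 lower and 1 higher of 23. Called higher genes were short, with a median span of 7.54 kb against 21.6 kb over all genes tested and 32.8 kb for the genes called lower.

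The genes of largest change under the naming rule were immune genes. Ccl5, a chemokine for T cells, was 21.5, 1.39 and 1.25 TMM-scaled CPM in the ATV:RSV mice and 43.0, 46.0 and 41.2 on day 7. Its log2 difference was 3.49 ± 0.56 (adjusted p = 8.53e-04 by limma-voom), but 0.97 within batch 1 and 4.30 and 4.23 within batches 2 and 3. It was 4.99 without ATV:RSV replicate 1 and not called by DESeq2. T cell and NK cell markers each summed to at most 0.697 CPM in every mouse. H2-Q7, a class I histocompatibility gene with near-identical relatives, was 10.3, 2.31 and 5.53 in the controls and 31.8, 51.7 and 49.8 on day 7 (2.99 ± 0.33, adjusted p = 1.49e-05 by limma-voom). Ifi27l2a, an interferon-induced gene, was 19.9, 8.59 and 13.9 against 61.2, 75.3 and 75.7 (2.34 ± 0.25). The naming rule asked for no overlap of day 7 mice with the controls, so the separation of these 3 genes was set by it. For each of them the difference was the smallest within batch 1.

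**Figure D5:**
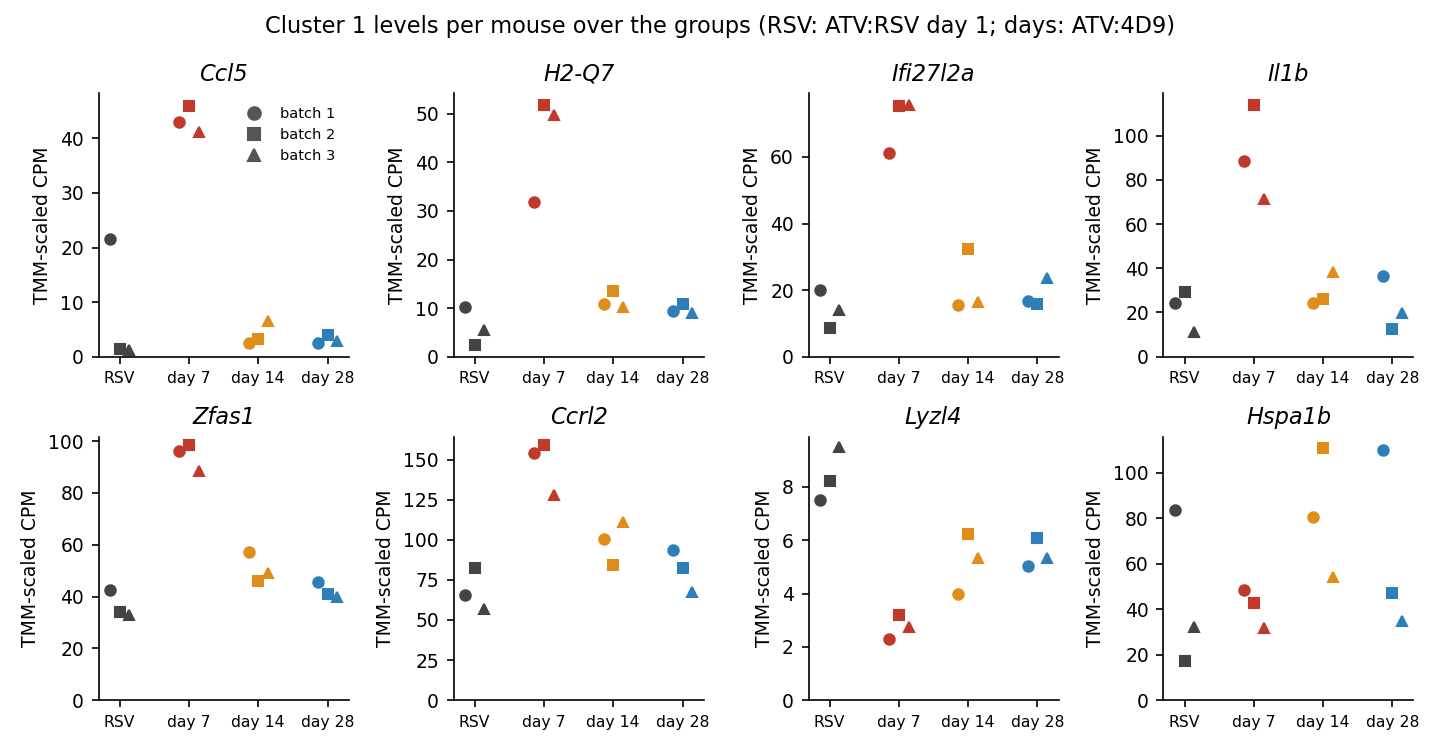
TMM-scaled CPM of 8 genes in cluster 1, 1 point per mouse, by group, with symbols for batch. Day 7 mice lie above every control for Ccl5, H2-Q7, Ifi27l2a, Il1b, Zfas1 and Ccrl2 and below every control for Lyzl4, while the Hspa1b groups overlap. Except for Il1b and Hspa1b, the genes were named under a rule that required this separation.

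Of the 12 named genes of lowest ratio, 3 were called higher on day 7, against 3.70% of all genes tested. Il1b went from 24.1, 29.4 and 11.3 in the controls to 88.7, 114 and 71.4 TMM-scaled CPM (2.16 ± 0.32, adjusted p = 4.22e-04 by limma-voom). Gadd45b rose by 1.63 ± 0.27 and Dusp2 by 1.29 ± 0.35. In cluster 0 the same 3 genes rose by 1.81, 0.74 and 1.06. That each mouse was lower in cluster 1 at matched depth was a condition of their naming. Of the 12 of highest ratio, Sema4b was called lower by -0.57 ± 0.12 on day 7, against 1.29% of all genes tested. The other 11 were not called.

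The lower genes of the rule were scarce transcripts. Lyzl4, a lysozyme relative, was 7.5, 8.22 and 9.51 in the controls and 2.29, 3.19 and 2.73 TMM-scaled CPM on day 7 (-1.61 ± 0.21, adjusted p = 1.06e-04 by limma-voom). Rnase10 (-1.16 ± 0.27) and Hbegf, a ligand of the epidermal growth factor receptor (-1.12 ± 0.27), were called too. The call of Rnase10 was lost without control replicate 2 or day 7 replicate 1 or 2, and that of Hbegf without control replicate 2 or day 7 replicate 1 or 3. Beside the day 7 changes, neuronal markers summed to 6.26 to 9.78 CPM against 11.1 to 13.4 in the controls, endothelial markers to 15.5 to 20.9 against 22.2 to 31.5, oligodendrocyte markers to 45.1 to 47.9 against 50.4 to 68, astrocyte markers to 5.87 to 7.12 against 7.39 to 7.89, and monocyte markers to 3.05 to 5.22 against 5.68 to 11.4. The 7 microglia markers summed to 18361 to 19650.3 CPM against 20303 to 22077. The part of these shifts in the results was not tested.

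By day 14 the higher calls were mostly ribosomal, with 73 of 119. Ifi209, an interferon-inducible DNA sensor, was 2.58 ± 0.230 in the controls and 6.18 ± 0.900 TMM-scaled CPM (1.26 ± 0.23, adjusted p = 0.00780 by limma-voom), and its call was lost without control replicate 1. Cdk1, the mitotic kinase, rose by 1.10 ± 0.23 from a level of 1.82 ± 0.407, and Vcam1, an adhesion molecule, by 1.07 ± 0.24. Cdk1 lost its call in 4 of the 6 fits that left out a mouse, and Vcam1 in 5. The 3 lower genes were Lyzl4 (-0.74 ± 0.17), Tm6sf1 (-0.35 ± 0.07) and Mast4, a kinase (-0.35 ± 0.08). Tm6sf1 lost its call in 3 of the 6 fits, Lyzl4 in 4 and Mast4 in all 6, and edgeR and DESeq2 did not call Lyzl4 or Mast4. These 6 genes were named on condition that day 14 mice did not overlap with the same controls. On day 28 none of them was called, with Lyzl4 at 5.48 ± 0.552, Vcam1 at 11.5 ± 4.19, Ifi209 at 4.46 ± 0.465 and Cdk1 at 3.34 ± 0.221.

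Whether a change differed between clusters 1 and 0 was tested by the interaction of cluster with day over 12943 genes, with mouse as a random block. On day 7, 76 genes (0.587%) differed, 74 with a larger value in cluster 1, and 50 of them were ribosomal proteins. The day 7 difference of the 78 tested ribosomal proteins was 0.65 in the median in cluster 1 and 0.42 in cluster 0, and the median of the differences was 0.24. Eef1a1, the main elongation factor (0.29 ± 0.04), and Rack1, a scaffold on the small subunit (0.30 ± 0.05), were also in the set. So were the immediate early genes Junb (0.45 in cluster 1, 0.04 in cluster 0) and Zfp36, an mRNA decay factor (0.48 and 0.07). Under the naming rule Ccrl2, a chemerin-binding receptor, was 65.5, 82.6 and 56.9 TMM-scaled CPM in the controls and 154, 159 and 128 on day 7, a change of 1.12 against 0.52 in cluster 0. The noncoding RNA Zfas1 went from 42.6, 34.1 and 32.9 to 96.0, 98.3 and 88.3, a change of 1.36 against 0.85. The count rested on scaling and on single mice. It was 3 with library size alone, 41 with thinned sums, 12 without ATV:RSV replicate 1, and 47, 32 and 7 without day 7 replicates 1, 2 and 3. No gene was called for day 14 (0%) or day 28 (0%) by limma-voom, with 680 and 535 genes at an unadjusted p under 0.05. An analysis of per-mouse differences called 1 and 0. The 605 day 7 calls of cluster 1 and the 497 of cluster 0 are thus mostly not shown to differ. The NF-kB, interferon and disease-associated lists had 0 genes each past this day 7 test, which only 0.587% of all genes passed.

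Values per cell followed the groups in part. Median genes per cell at matched depth were 1329 ± 11 in the ATV:RSV mice, 1244 ± 1.15 on day 7, 1284 ± 9.87 on day 14 and 1316 ± 10.7 on day 28, and differed over the groups (exact permutation within batches, two-sided, p = 0.00347). Of day 7 and day 14 no mouse overlapped with the controls, but 3 mice against 3 cannot give an exact p below 0.1. Median UMIs per cell were 3677 to 4388 in the controls and 3755 to 4773 in the treated mice (exact permutation p = 0.715). The mean mitochondrial share was 3.55% ± 0.0793 in the controls and 4.05% ± 0.241 on day 7 (exact permutation p = 0.156 over the 4 groups).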

How the data were processed

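UMI counts of single cells from 12 mice were used as deposited. The authors made these counts with Cell Ranger (4.0.0 and build mm10 per the labels, while the study's methods name other versions) and deposited the mitochondrial percent of each cell, at most 10, and the other columns, which name mouse and cluster number. Clusters were made by the authors in Seurat at resolution 0.1 on integrated values, and their filters on cells were not given in the sources used here. The matrix sum equalled the deposited UMIs in 102043 of 102043 cells. No doublet caller was run. An alternative left out cells with 3 or more markers of another type and the 5% of cells with most UMIs.

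For levels between clusters each cell was thinned at random to 2637 UMIs, the lower of the 10th percentiles of clusters 0 and 1, shallower cells were left out, and UMIs were summed per mouse to CPM. Ratios are log2(CPM + 1). For groups, unthinned counts were summed per mouse and tested with limma 3.58.1 (voom, TMM, all 4 groups in 1 fit, Benjamini-Hochberg under 0.05) after edgeR's filter at a minimum count of 10. edgeR 4.0.16 and DESeq2 1.42.0 were alternatives, as were library size alone, no filter, thinned sums, batch as a block and leaving out each mouse. Fold changes are log2 with SE, and group values are TMM-scaled CPM. The interaction used the mouse as a random block (correlation 0.46).

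Batch paired the mice by the labels. Deviations of mice of different groups correlated at a median of 0.13 within a batch (-0.09 to 0.31, 18 pairs, 11 over 0.1) and -0.07 between batches (36 pairs, 3 over 0.1).

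The members and lists were chosen with earlier results of these data known. Named genes were Hspa1b and Hist1h1d, the 12 highest and 12 lowest ratios at 20 CPM or more with 1 sign in 12 of 12 mice, at each day and for each interaction the 3 largest called changes each way with at least 10 UMIs per mouse and no overlap, and in each list the 3 members of highest CPM. Predicted names were left out, and some items are not reported here. In data simulated for day 7 over 12139 genes with 200 changed, 60.0% of 1.5-fold and 81.0% of 2-fold changes were recovered, with 12 false among 153 calls. Promoters came from RefSeq and gene spans from the GENCODE annotation of GRCm38.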

Additional observations from a re-analysis of the deposited data

Results flagged for a closer look

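The change between control and day 7 mice differed between clusters 1 and 0 for 76 of 12943 genes by the limma-voom interaction test. The count was 3 with library size alone and ran from 7 to 82 when 1 mouse was left out. The lowest values came without day 7 replicate 3 (7) and ATV:RSV replicate 1 (12).

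Under the naming rule 3 genes had a larger value in cluster 1. For Ccrl2 the difference was a log2 value of 0.60 with an SE of 0.12 (adjusted p = 0.0156 by limma-voom), and its call was lost without ATV:RSV replicate 1 or 3 or day 7 replicate 1 or 2. Zfas1 differed by 0.51 ± 0.09 and lost its call only without day 7 replicate 3 among the fits that left out a mouse. Epb41l4aos, a noncoding RNA, differed by 0.49 ± 0.09, with a change of 1.14 in cluster 1 and 0.65 in cluster 0, and lost its call without ATV:RSV replicate 1 or 3 or day 7 replicate 1 or 3. With library size alone none of the 3 was called.

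In the other direction Nrbf2, an autophagy factor, differed by -0.35 ± 0.08. It was 44.6, 46.5 and 45.9 TMM-scaled CPM in the controls and 38.8, 41.4 and 42.2 on day 7 in cluster 1, and 54.3, 52.3 and 52.5 against 54.8, 64.7 and 62.8 in cluster 0. The changes were -0.16 and 0.19, and neither was called by itself. Only the fit without day 7 replicate 1, of the 6 that left out a mouse, kept its call. Abcc5, a transporter, differed by -0.29 ± 0.06, with 81.4, 78.8 and 82.4 in the controls against 72.4, 62.9 and 68.6 on day 7 in cluster 1, a change of -0.25 against 0.04 in cluster 0. Its call was lost without ATV:RSV replicate 1 or 3 or day 7 replicate 2 or 3.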

How the results depend on the processing

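The values recomputed for the genes named for the largest ratios or changes kept their direction, and other named genes were not recomputed. With TMM scaling the medians of lists between clusters turned from above to below 0 for disease-associated, MHC class II, proteasome, ribosomal protein, oxidative phosphorylation, interferon and cell cycle genes and for all genes. With library size alone the day 7 count was 1960, with 313 higher and 1647 lower in place of 449 and 156, and the count over the 4 groups 654, and the day 7 interaction count fell to 3. That interaction count was 41 with thinned sums and 161 as per-mouse differences, which gave 1 gene for day 14. DESeq2 called 3 genes on day 28. With batch as a replicate block, pairing the mice, the counts were 1049 on day 7, 196 on day 14 and 0 on day 28. They were 586 over the groups and 93 for the day 7 interaction. With this block no call changed among the named genes that were recomputed. Leaving out 1 mouse gave 356 to 518 genes on day 7, 78 to 121 on day 14, 0 to 0 on day 28, 238 to 338 over the groups, 7 to 82 for the day 7 interaction and 0 to 2 for that of day 14. Hist1h1d had a cluster ratio of 0.70 in unthinned cells of 4000 to 5000 UMIs, an alternative chosen after seeing the data, and Hspa1b one of 1.52 with a pseudocount of 10 CPM. The causes were not tested. Among values of single named genes under alternatives, 134 kept their side of the threshold and 72 lost the call. Depth limits the shares of cells with a marker gene, since most cells held no UMI of either.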
